A study of Mus musculus with 6 samples.

Results

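The genes described here are 43 genes of the Nrf2, glutathione and antioxidant system, fixed by name and read from every probe set whose annotation names one of them alone. Of these, 40 had such a probe set, 76 probe sets in all, among the 18193 genes read this way on the array. The samples were 6 cultures of the 393P line, which consists of lung cancer cells from the mouse. In 3 cultures the cells stably carried the empty pcDNA vector, called control vector here, and in the other 3 they carried a vector that expresses Zeb1 constitutively, called Zeb1 vector. Zeb1 is a zinc-finger repressor that silences epithelial genes, and the question posed is which transcripts differ once it is expressed. All 6 cultures grew in the same serum-supplemented medium, with no oxidant or drug named in the labels. The labels speak of Zeb1 induction in one place and of constitutive expression in another, and the promoter and the number of clones or transfections behind each group are not given in the sources used here. Each p-value therefore measures the spread between cultures of 1 line.

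Nrf2, the product of Nfe2l2, is a transcription factor that Keap1 normally hands to a Cul3 ubiquitin ligase for destruction. Oxidants and electrophiles modify Keap1, and Nrf2 then accumulates, pairs with small Maf proteins and binds antioxidant response elements in genes for glutathione synthesis, quinone reduction, drug conjugation and NADPH supply. Glutathione is made from cysteine by glutamate-cysteine ligase and glutathione synthetase. Glutathione reductase and thioredoxin reductase spend NADPH to keep glutathione and thioredoxin reduced. In human lung tumours this system is often switched on by mutation of the KEAP1 or NFE2L2 gene.

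The arrays had been scaled by the authors to a common trimmed mean signal, and values are log2 MAS5 signals, with signals under the 25th percentile of all values raised to that floor (4.45). Across tested probe sets, which are not independent replicates, Pearson's r was 0.979 to 0.984 within a group and 0.867 to 0.873 between a control vector and a Zeb1 vector array. The brightest Zeb1 probe set read 4.45, 4.45 and 4.50 on the control vector arrays and 9.71, 9.59 and 9.78 on the Zeb1 vector arrays, higher on every array labelled Zeb1 vector. Of 5 epithelial markers (Epcam, Cdh1, Krt8, Krt18 and Krt19), all 5 lay above the pooled median signal (6.32) in both groups, each read from its brightest probe set, at means of 13.46 to 14.69 in control vector cells and 6.66 to 14.72 in Zeb1 vector cells. Epcam fell from 13.72 to 6.66 (133-fold) on its brightest probe set and from 11.01 to 7.68 (10.0-fold) on its other one. Cdh1 fell from 14.18 to 10.17 (16.1-fold), and the part of these losses in the results below was not tested. Of 6 lung lineage markers, 1 lay above it in control vector cells and 2 in Zeb1 vector cells. Of 6 fibroblast, 5 leukocyte and 5 endothelial markers with a probe set of their own, 1 of each list lay above it in control vector cells (Col1a2, Cd68 and Kdr). The same held in Zeb1 vector cells, except that 2 leukocyte markers did, with Adgre1 at 6.33, and Pecam1 was at the floor on all arrays.

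Most of the tested antioxidant genes were higher in Zeb1 vector cells, with the largest mean rises in glutathione synthesis and in aldehyde, carbonyl and epoxide metabolism. Of 38 genes that passed the filter on low signals, 22 rose, 6 fell and 10 were not called by limma's moderated test at an adjusted p of 0.05. Over all 11893 genes tested, 26.4% rose and 24.1% fell, and 50.5% were called in either direction. The median log2 change was 0.38 over the 38 genes and 0.01 over all genes tested. No overlap between groups was seen for 33 of the 38, where 58.2% of all tested genes did not overlap. Rises of at least 2-fold were called for 8 (Nqo1, Slc7a11, Gclc, Gss, Mgst2, Aldh1a1, Aldh3a1 and Cbr3) and such falls for 2 (Gstm2 and Mgst1), against 9.01% and 6.8% of all tested genes. These genes were bright ones, with a median mean log2 signal of 10.74 against 9.09 for all tested genes, and the part this plays in the share called was not tested. In bulk cultures, a change in the share of cells that express a gene and a change in its RNA per cell cannot be told apart.

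**Figure D1:**
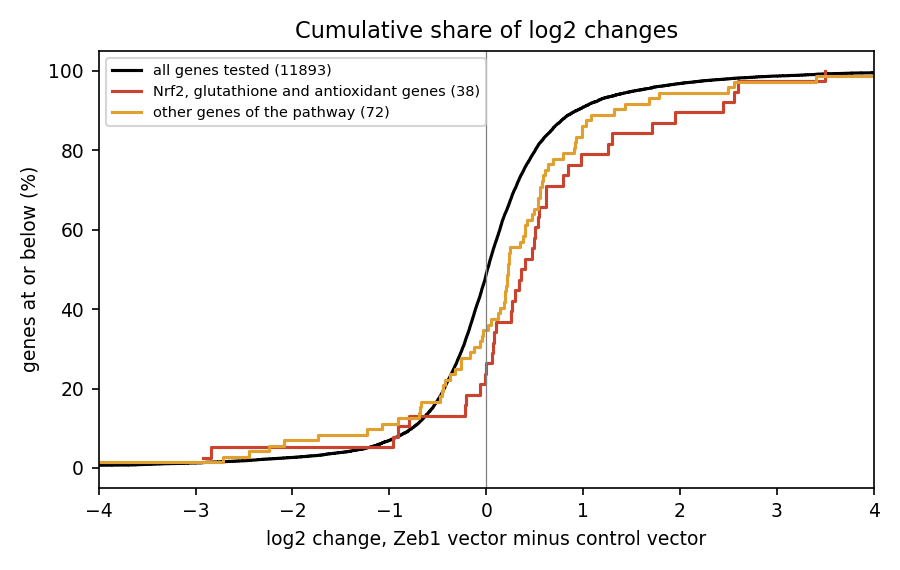
Cumulative percentage of genes (vertical axis) at or below each log2 change, Zeb1 vector minus control vector (horizontal axis), for all 11893 genes tested, the 38 tested Nrf2, glutathione and antioxidant genes, and 72 other tested genes of the pathway. The axis stops at 4 on either side, which leaves out 146 of all genes, 2 of the other pathway genes and 0 of the 38. The curve of the 38 genes lies to the right of that of all genes over the middle of the range, with medians of 0.38 and 0.01.

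The filter kept probe sets that reached the median of their array on 3 or more arrays. It was met on all 6 arrays by 33 of the 38, by Mgst1 through control vector arrays alone and by Cbr3 through Zeb1 vector arrays alone, so those 2 could pass only by differing. Their changes are given as a description. The counts and role means of the tested genes include both, and the shares over all tested genes also include any genes that passed in this way. Nqo1, Gstm2 and Gstt1 passed on some arrays of both groups. Gpx2, an epithelial glutathione peroxidase, and Sod3, the extracellular superoxide dismutase, were at the floor on all 6 arrays and were not tested. With no filter, 20 of 40 rose, 5 fell and 15 were not called, against 15.5% and 14% of 18193 genes (29.5% called either way). The peroxide scavenger Prdx1 was read by 5 probe sets that also name Gm21399, so it has no call of its own here. Its brightest probe set read 14.23, 14.21 and 14.20 on control vector arrays and 14.34, 14.37 and 14.42 on Zeb1 vector arrays. On each of the 5 the Zeb1 vector arrays were higher without overlap, by 0.16 to 0.29 on the log2 scale. No probe set was named for G6pdx or Prdx6 in the annotation, and they are not analysed here.

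**Figure D2:**
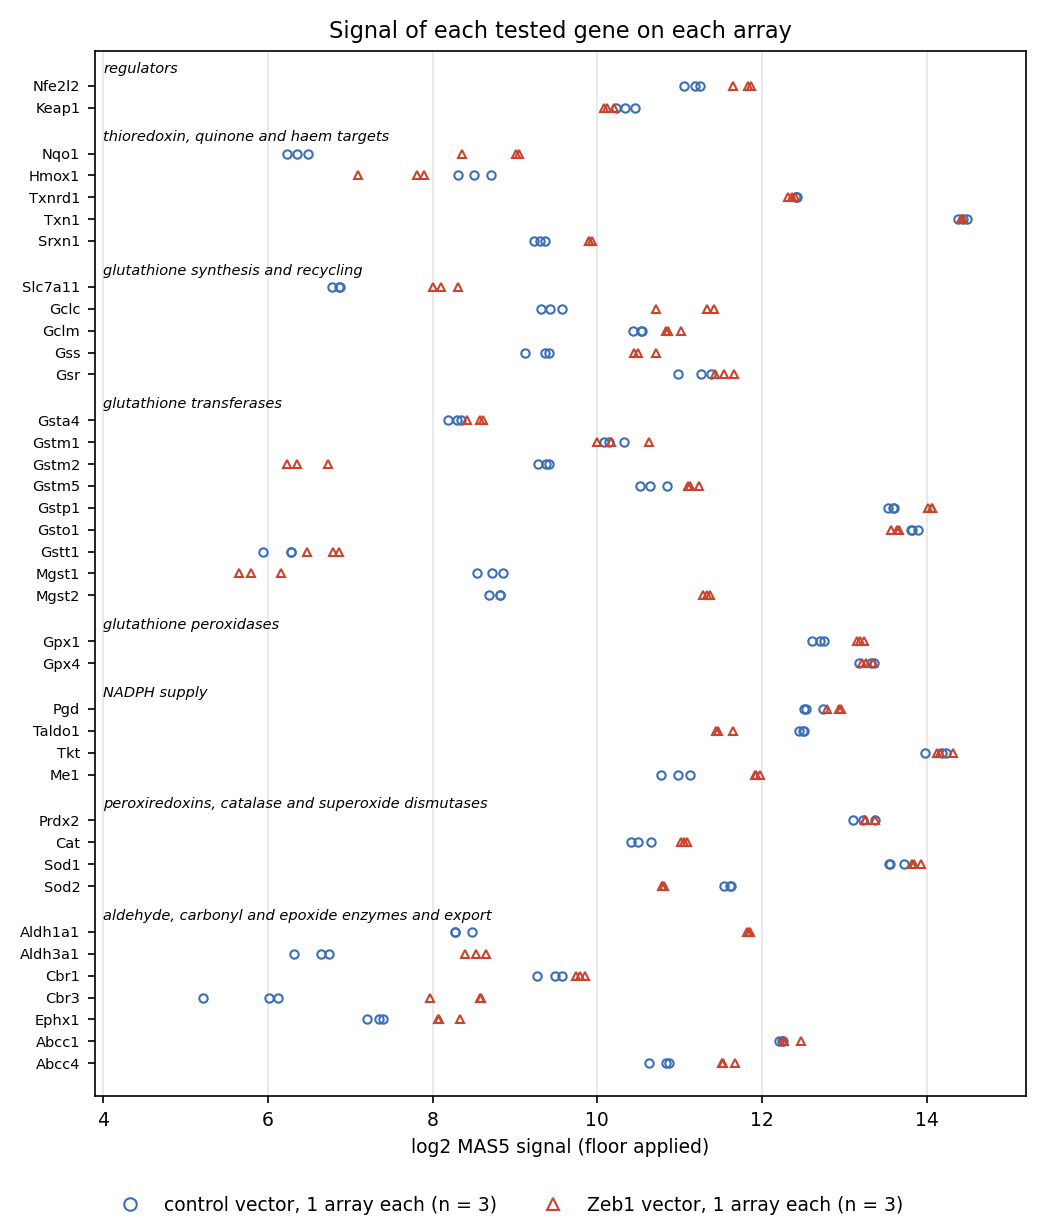
Log2 MAS5 signal (horizontal axis) of each of the 38 tested genes (vertical axis, by role) on the 3 control vector arrays (circles) and the 3 Zeb1 vector arrays (triangles). Aldh1a1 and Mgst2 show wide gaps to the right, Gstm2 and Mgst1 wide gaps to the left, and Txn1, Gpx4, Tkt, Prdx2 and Gstm1 overlap.

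Promoter sequence was looked at because many, though not all, of these genes are known as targets of one factor and the transfected protein is a repressor with a known E-box. In RefSeq windows of build GRCm38.p6, the 250 bases before each transcription start were searched on both strands for the antioxidant response element core TGACNNNGC, the AP-1 type site TGANTCA, which Maf-containing dimers can also read, and the Zeb1 E-box CACCTG. Windows were held for 35 of the 43 genes, some with several starts. The core was found in 9 of the 35 (25.7%) and in 11.5% of 27025 genes, the AP-1 type site in 6 (17.1%) against 7.82%, and the E-box in 8 (22.9%) against 19.4%. Among the genes that rose, each of the 3 motifs was found in 5 of 19. Of the 5 that fell and had a window, 1 held the core and 2 the E-box. A match is a description of the letters and not a bound site, and elements known to lie farther upstream are outside these windows. The first group below shows the core in genes with different outcomes (3 that rose and Mgst1, which fell). The second shows the AP-1 type site in genes that rose, and the third the E-box in the genes with a window that fell and held it. The E-box was also found in Aldh1a1, Me1, Abcc4, Pgd and Nfe2l2, which rose, and in Gpx4, which was not called. Capitals mark the match, which reads as its reverse complement where it lies on the other strand, and every stretch is 5′ to 3′ on the gene's strand. In Nfe2l2 a Zeb1 E-box overlaps the start of the core. The positions are chr2:75704870-75704913 (minus strand) for Nfe2l2, chr3:122245398-122245456 (plus) for Gclm, chr3:107895787-107895845 (plus) for Gstm5, chr6:138140446-138140504 (plus) for Mgst1, chr2:152105397-152105453 and chr2:152105454-152105510 (plus) for the first and second sites of Srxn1, chr3:51661102-51661158 (plus) for Mgst2, chr3:107986609-107986664 (minus) for Gstm2 and chr19:47854748-47854803 (plus) for Gsto1.
Nfe2l2, core: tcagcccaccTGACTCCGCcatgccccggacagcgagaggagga
Gclm, core: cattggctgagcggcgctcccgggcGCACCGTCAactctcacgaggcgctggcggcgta
Gstm5, core: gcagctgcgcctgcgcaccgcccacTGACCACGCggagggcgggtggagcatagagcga
Mgst1, core: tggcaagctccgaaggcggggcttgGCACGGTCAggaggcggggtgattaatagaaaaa
Srxn1, first AP-1 type site: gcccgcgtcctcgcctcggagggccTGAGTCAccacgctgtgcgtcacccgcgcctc
Srxn1, second AP-1 type site: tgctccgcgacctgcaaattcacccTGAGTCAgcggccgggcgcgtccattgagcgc
Mgst2, AP-1 type site: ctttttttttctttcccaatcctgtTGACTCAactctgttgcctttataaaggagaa
Gstm2, E-box: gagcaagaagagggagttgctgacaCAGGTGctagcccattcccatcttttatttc
Gsto1, E-box: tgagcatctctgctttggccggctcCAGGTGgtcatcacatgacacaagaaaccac

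The transcript of the factor rose and that of its inhibitor was not called. The arrays read RNA, so the amount and activity of the Nrf2 protein were not measured. Nfe2l2 read 11.25, 11.18 and 11.05 on the control vector arrays and 11.87, 11.83 and 11.65 on the Zeb1 vector arrays. Every Zeb1 vector array was above every control vector array, a 1.54-fold rise (log2 change 0.62, SE 0.082, limma adjusted p = 0.000127). Keap1 read 10.33, 10.45 and 10.23 in control vector cells and 10.08, 10.20 and 10.11 in Zeb1 vector cells. The groups did not overlap, but its log2 change of -0.21 (SE 0.087, 95% interval -0.40 to -0.01) missed the threshold (limma adjusted p = 0.0728). Its call depended on the setting: Keap1 was called as a fall with quantile normalization (-0.22, adjusted p = 0.0491) and without control vector replicate 3 (-0.26, adjusted p = 0.0493), and its second probe set had a change of -0.01.

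Of the 5 thioredoxin, quinone and haem targets of Nrf2, 2 rose, 1 fell and 2 were not called. Over all tested genes 26.4% rose and 24.1% fell. Genes of NADPH supply and of drug and aldehyde metabolism are given under their own roles below. Nqo1, the quinone reductase often used as a readout of Nrf2 activity, read 6.35, 6.49 and 6.23 in control vector cells and 9.05, 9.01 and 8.36 in Zeb1 vector cells. Control vector arrays thus lay close to the pooled median of all signals, and the rise was 5.46-fold (log2 change 2.45, SE 0.211, limma adjusted p = 6.56e-06). Srxn1, sulfiredoxin, which repairs over-oxidised peroxiredoxins and whose promoter stretches with AP-1 type sites are printed above, read 9.30, 9.23 and 9.36 against 9.93, 9.91 and 9.90. It rose 1.53-fold (adjusted p = 0.000208), and 3 of its 4 tested probe sets rose.

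Hmox1, haem oxygenase-1, went the other way. It read 8.31, 8.71 and 8.50 in control vector cells and 7.81, 7.89 and 7.09 in Zeb1 vector cells, with Zeb1 vector replicate 3 lowest. The fall was 1.88-fold (log2 change -0.91, SE 0.219, limma adjusted p = 0.00587) and lost its call when no filter was applied (adjusted p = 0.0608). The thioredoxin genes gave no call. Txn1, thioredoxin, had a log2 change of -0.01 (95% interval -0.11 to 0.09), and Txnrd1, its reductase, of -0.06 (95% interval -0.18 to 0.06). For these bright probe sets the intervals leave room for changes of at most 0.18 on the log2 scale. All 5 tested probe sets of the pair were without a call.

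All 5 tested genes of glutathione synthesis and recycling rose, where 26.4% of all tested genes did. Gclc, the catalytic subunit of glutamate-cysteine ligase, read 9.32, 9.58 and 9.43 in control vector cells and 11.42, 11.33 and 10.72 in Zeb1 vector cells. It rose 3.28-fold (log2 change 1.71, SE 0.166, limma adjusted p = 1.49e-05), and its other probe set by 1.66. Gclm, the modifier subunit of the same enzyme, read 10.53, 10.43 and 10.55 against 11.01, 10.84 and 10.86. It rose 1.32-fold (log2 change 0.40, SE 0.079, adjusted p = 0.00185), with a core match 134 bases before its start in the stretch printed above. Its other probe set rose by 0.73.

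Slc7a11, the cystine carrier that feeds glutathione synthesis, read 6.78, 6.87 and 6.88 in control vector cells and 8.31, 8.10 and 8.00 in Zeb1 vector cells. It rose 2.45-fold (log2 change 1.29, SE 0.165, limma adjusted p = 0.000103). Gss, glutathione synthetase, read 9.42, 9.36 and 9.12 against 10.50, 10.45 and 10.71, a 2.38-fold rise (log2 change 1.25, SE 0.110, adjusted p = 7.54e-06). For both genes the lowest Zeb1 vector array stood well clear of the highest control vector array, and the second probe sets rose by 1.53 and 1.11. Gsr, glutathione reductase, read 11.38, 10.98 and 11.25 against 11.66, 11.43 and 11.54, a 1.27-fold rise (log2 change 0.34, SE 0.105, adjusted p = 0.0214). Its 2 groups almost touched, and the call was lost without control vector replicate 2 (log2 change 0.23, adjusted p = 0.0587), without Zeb1 vector replicate 1 (adjusted p = 0.0844) and without Zeb1 vector replicate 3 (adjusted p = 0.0510). Its other probe set rose by 0.70 (SE 0.070, adjusted p = 3e-05 over probe sets), and with the mean of both its change was 0.52.

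**Figure D3:**
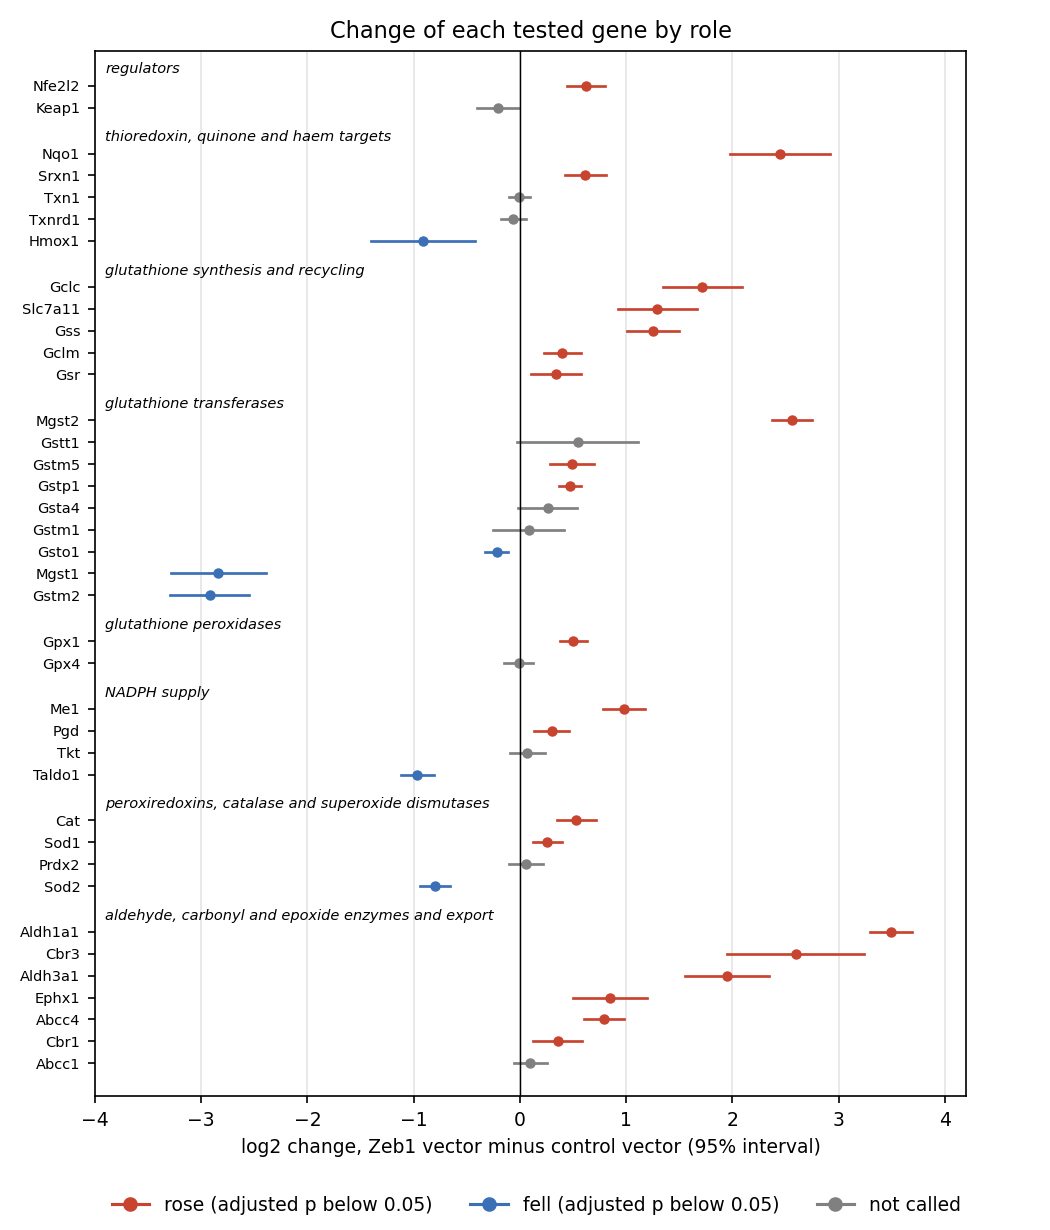
Log2 change, Zeb1 vector minus control vector (horizontal axis), of the 38 tested genes by role, with limma's 95% interval as a line. Genes that rose are red, genes that fell blue and genes not called grey; all 5 genes of glutathione synthesis and recycling lie right of 0, and the transferases spread from -2.92 to 2.56.

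The glutathione transferases, which join glutathione to reactive compounds, changed in opposite directions, 3 of 9 up, 3 down and 3 not called. Among all tested genes 26.4% rose and 24.1% fell, so these counts are near those shares. Gstm2, a cytosolic mu-class transferase, read 9.41, 9.37 and 9.28 in control vector cells and 6.36, 6.73 and 6.23 in Zeb1 vector cells. It fell 7.56-fold (log2 change -2.92, SE 0.165, limma adjusted p = 3.14e-07), down to signals near the pooled median. Its stretch printed above holds an E-box, a motif also found in 5 of 19 genes that rose. Mgst1, a membrane-bound transferase of the endoplasmic reticulum and mitochondria, read 8.85, 8.73 and 8.54 against 6.16, 5.65 and 5.80. It was 7.15-fold lower in Zeb1 vector cells (log2 change -2.84), or 5.21-fold when the floor was raised to the 50th percentile. Mgst1 passed the filter through control vector arrays alone, so its change is a description. Mgst2, a related membrane enzyme that can also make leukotriene C4, went up instead. It read 8.82, 8.68 and 8.82 in control vector cells and 11.37, 11.29 and 11.34 in Zeb1 vector cells, a 5.90-fold rise (log2 change 2.56, SE 0.083, adjusted p = 6.89e-09).

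Smaller changes were seen in 3 other transferases. Gstp1, the pi-class enzyme abundant in many tumours, read 13.60, 13.52 and 13.59 against 14.01, 14.07 and 14.06 and rose 1.39-fold (limma adjusted p = 1.5e-05). Gstm5 rose 1.40-fold (log2 change 0.49, adjusted p = 0.00144) and Gsto1, the omega-class enzyme, fell 1.16-fold (log2 change -0.22, adjusted p = 0.00384), a fall of 0.33 on its other probe set. Gsta4, which clears the lipid aldehyde 4-hydroxynonenal, had a change of 0.26 (95% interval -0.01 to 0.54) and Gstt1 of 0.54 (95% interval -0.03 to 1.11), both without a call although their groups did not overlap. Gstm1 had a change of 0.08 (95% interval -0.25 to 0.42), and 1 of its 4 probe sets fell, by 0.85 (adjusted p = 0.00209 over probe sets), while the other 3 were not called.

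The mu-class genes are related neighbours on chromosome 3, and whether their probe sets share signal was not tested. In the order of the RefSeq table the changes were 0.49 for Gstm5, 0.20 for Gstm7 (adjusted p = 0.578), -0.03 for Gstm3 (adjusted p = 0.877), -2.92 for Gstm2, 0.08 for Gstm1 and -0.44 for Gstm4 (adjusted p = 0.0359), with Gstm6 not tested. Of the 6 tested, Gstm2 alone changed by over 2-fold, and Gstm3 and Gstm1 on either side of it were not called.

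Of the selenium-dependent glutathione peroxidases, Gpx1, the abundant cytosolic form, read 12.75, 12.61 and 12.71 in control vector cells and 13.15, 13.19 and 13.23 in Zeb1 vector cells. The rise was 1.42-fold without overlap (log2 change 0.50, SE 0.056, limma adjusted p = 3.97e-05). Gpx4, which reduces lipid hydroperoxides in membranes and restrains ferroptosis, read 13.36, 13.18 and 13.32 against 13.26, 13.22 and 13.34. Its groups overlapped (log2 change -0.01, 95% interval -0.15 to 0.13, adjusted p = 0.907), and its second probe set had a change of 0.07.

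Of 4 tested genes of NADPH supply 2 rose, 1 fell and 1 was not called. These counts stand beside 26.4% and 24.1% of all tested genes that rose and fell. Me1, cytosolic malic enzyme, read 11.12, 10.77 and 10.98 in control vector cells and 11.91, 11.92 and 11.98 in Zeb1 vector cells. It rose 1.97-fold (log2 change 0.98, SE 0.089, limma adjusted p = 9.46e-06), just under the 2-fold mark, and by 1.40 on its other probe set. Pgd, the second NADPH-producing dehydrogenase of the pentose phosphate pathway, read 12.74, 12.51 and 12.54 against 12.79, 12.95 and 12.93 and rose 1.23-fold (adjusted p = 0.00694). The call of Pgd was lost with no filter (adjusted p = 0.0528), its change was 0.19 when cross-hybridising probe sets were left out, and 3 of its 4 probe sets rose.

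Taldo1, transaldolase, of the non-oxidative arm of that pathway, fell. It read 12.45, 12.50 and 12.50 in control vector cells and 11.45, 11.64 and 11.46 in Zeb1 vector cells, a 1.95-fold fall (log2 change -0.97, SE 0.069, limma adjusted p = 1.57e-06). Tkt, transketolase, of the same arm, was not called on its brightest probe set (log2 change 0.07, 95% interval -0.10 to 0.23). Its other 2 probe sets rose, by 0.30 and 0.78, and the gene was called as a rise with the mean of its probe sets (0.38, adjusted p = 0.00112) and when cross-hybridising probe sets were left out (0.30, adjusted p = 0.00242).

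Among enzymes that remove superoxide and peroxide, 2 of 4 tested genes rose, 1 fell and 1 was not called. The shares over all tested genes were 26.4% and 24.1%. Sod2, the mitochondrial manganese enzyme, read 11.61, 11.63 and 11.54 in control vector cells and 10.81, 10.78 and 10.80 in Zeb1 vector cells. It fell 1.74-fold (log2 change -0.80, SE 0.064, limma adjusted p = 4e-06), and 3 of its 4 tested probe sets fell. With the mean of probe sets its change was -0.47. Sod1, the cytosolic copper-zinc enzyme, read 13.73, 13.55 and 13.54 against 13.84, 13.93 and 13.82 and rose 1.19-fold on its brightest probe set (log2 change 0.26, adjusted p = 0.00557). A dimmer Sod1 probe set fell by 0.76 (adjusted p = 0.000571 over probe sets), and with the mean of probe sets the gene's change was -0.06 (adjusted p = 0.386), so its direction rests on the probe set taken. Cat, catalase, read 10.41, 10.66 and 10.49 against 11.05, 11.09 and 11.01 and rose 1.45-fold (log2 change 0.53, SE 0.082, adjusted p = 0.000366). Prdx2, a cytosolic peroxiredoxin, overlapped between groups (log2 change 0.06, 95% interval -0.10 to 0.22).

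**Figure D4:**
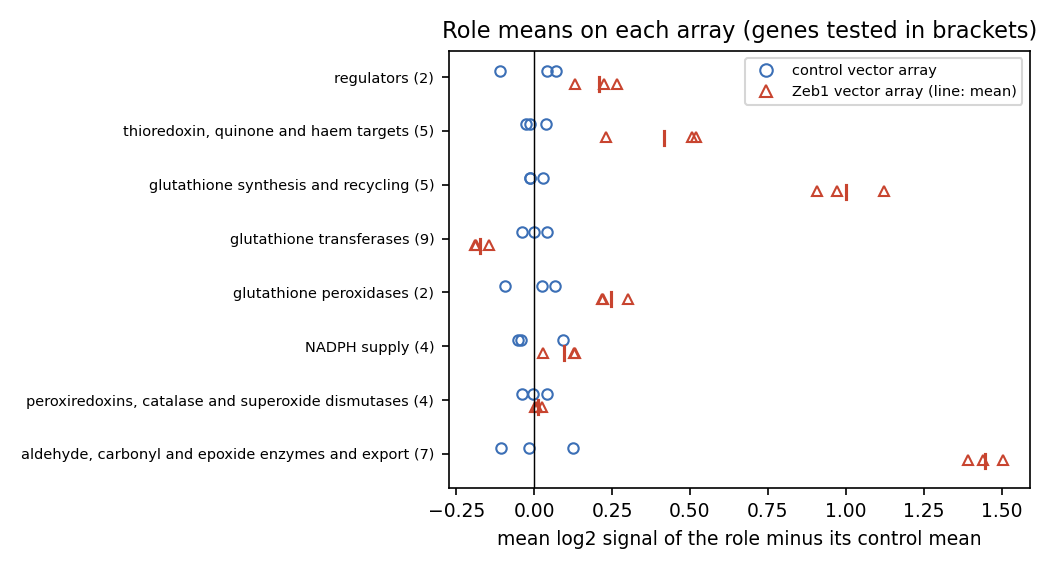
Mean log2 signal of the tested genes of each role on each array, minus the mean of the 3 control vector arrays (horizontal axis); circles are control vector arrays, triangles Zeb1 vector arrays and the short line their mean. The mean shift was 1.45 for aldehyde, carbonyl and epoxide enzymes and export, 1.00 for glutathione synthesis and recycling, and 0.01 for peroxiredoxins, catalase and superoxide dismutases. The first of these roles includes Cbr3 and the transferases include Mgst1, genes that could pass the filter only by differing.

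The enzymes of aldehydes, carbonyls and epoxides with the export pumps had the largest mean rise of any role (1.45 on the log2 scale), 6 of 7 up and 1 not called. Over all tested genes 26.4% rose. Both the mean and the 6 include Cbr3, which could pass the filter only by differing. Aldh1a1, an aldehyde dehydrogenase that makes retinoic acid and is used as a stem-cell marker, read 8.48, 8.27 and 8.28 in control vector cells and 11.86, 11.84 and 11.81 in Zeb1 vector cells. Its 11.3-fold rise (log2 change 3.49, SE 0.088, limma adjusted p = 1.62e-09) was the largest of the 38. Aldh3a1, a dehydrogenase of fatty and aromatic aldehydes, read 6.75, 6.32 and 6.64 against 8.53, 8.65 and 8.39 and rose 3.86-fold (log2 change 1.95, SE 0.178, adjusted p = 9.72e-06). The carbonyl reductase Cbr3 read 6.02, 5.22 and 6.12 against 8.58, 8.59 and 7.97. Its signal was 6.04-fold higher in Zeb1 vector cells (log2 change 2.59), or 4.15-fold when the floor was raised to the 50th percentile, since control vector signals were low. Cbr3 passed the filter through Zeb1 vector arrays alone, so its change is a description.

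Cbr1, its relative and neighbour on chromosome 16, read 9.57, 9.49 and 9.26 in control vector cells and 9.74, 9.79 and 9.85 in Zeb1 vector cells, a 1.28-fold rise (limma adjusted p = 0.016). That call was lost without control vector replicate 3 (log2 change 0.27, adjusted p = 0.0597). Ephx1, microsomal epoxide hydrolase, read 7.40, 7.35 and 7.20 against 8.08, 8.34 and 8.06 and rose 1.80-fold (adjusted p = 0.00117). Abcc4, an exporter of organic anions and cyclic nucleotides, read 10.87, 10.83 and 10.63 against 11.51, 11.53 and 11.67 and rose 1.73-fold (adjusted p = 2.77e-05). Abcc1, which exports glutathione conjugates, had a change of 0.10 (95% interval -0.06 to 0.25) on its brighter probe set and -0.09 on the other.

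Taken by role, the means of the tested genes set the roles apart. For glutathione synthesis and recycling the mean read 9.49, 9.44 and 9.44 on control vector arrays and 10.58, 10.43 and 10.36 on Zeb1 vector arrays. For aldehyde, carbonyl and epoxide enzymes and export it read 8.76, 8.53 and 8.62 against 10.08, 10.14 and 10.03. The transferase mean was 9.95 ± 0.040 in control vector and 9.78 ± 0.025 in Zeb1 vector cells (SD, n = 3 each), over genes that moved in opposite directions. It includes Mgst1 (log2 change -2.84), which passed the filter through control vector arrays alone, so the lower mean is a description. Its direction without Mgst1 was not tested. The mean of aldehyde, carbonyl and epoxide enzymes and export likewise includes Cbr3, which passed through Zeb1 vector arrays alone. The NADPH supply mean overlapped between groups (12.54 ± 0.080 and 12.64 ± 0.058), as did that of peroxiredoxins, catalase and superoxide dismutases (12.24 ± 0.040 and 12.25 ± 0.012).

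Of 20 genes with several tested probe sets, 14 had the same outcome on each. For Keap1, Txnrd1, Txn1, Gpx4, Prdx2 and Abcc1 among the 14, the shared outcome was that no probe set was called. Another 5 had called and uncalled probe sets (Srxn1, Gstm1, Pgd, Tkt and Sod2), and Sod1 had opposite calls. Over the 69 tested probe sets 36 rose and 11 fell, against 24.5% and 21.6% of all 20594 tested probe sets (46.1% called either way). Gclc, Slc7a11, Gss, Me1 and Cat rose on both of their probe sets.

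**Figure D5:**
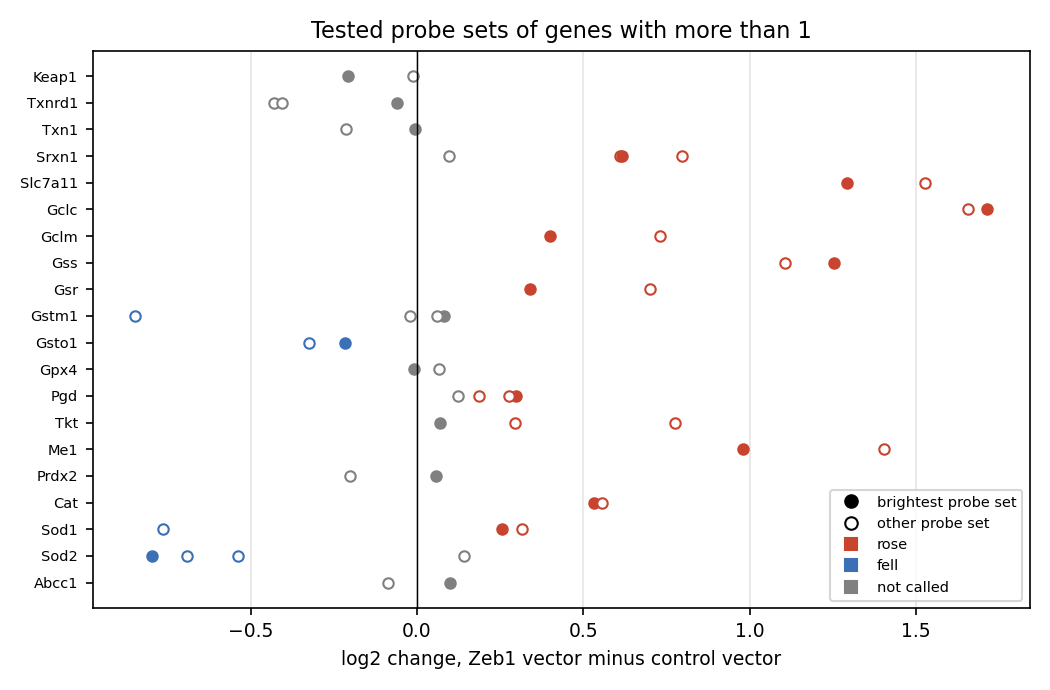
Log2 change, Zeb1 vector minus control vector (horizontal axis), of every tested probe set of the 20 genes with more than 1; filled points are the brightest probe set, which stands for the gene, and open points the others, coloured by call over all probe sets. The spread is widest for Sod1 (-0.76 to 0.32), Gstm1 (-0.85 to 0.08) and Sod2 (-0.80 to 0.14).

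The rest of the pathway was read from a list of 86 further genes, of which 72 were tested. Here 38 rose, 20 fell and 14 were not called, against 26.4% and 24.1% of all tested genes, with a median log2 change of 0.23. The filter was met by Aldh1a3 and Gpx7 through Zeb1 vector arrays alone and by Nfe2l3 and Gpx3 through control vector arrays alone, so these 4 could pass only by differing, and their values are given as a description. The counts of this list include all 4. Of the factor's partners and relatives, all 8 tested were called, 4 in each direction, where 50.5% of all tested genes were called. Nfe2l3 is among the 8, and its call was built into its passing the filter. Nfe2l1, a related factor, rose by 0.79, the small Maf gene Mafg by 0.56, the selective-autophagy receptor Sqstm1, which binds Keap1, by 0.40 and Cul3 by 0.23. The small Maf genes Mafk and Maff had log2 changes of -0.91 and -0.48, and Bach1, a repressor that competes with Nrf2 at its elements, of -0.38 (limma adjusted p = 0.00394). Nfe2l3, another factor of the family, went from 9.86 ± 0.116 to 5.28 ± 0.296 (SD, n = 3 each). Its log2 change was -4.58, or -3.53 when the floor was raised to the 50th percentile.

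Large rises in that list were also seen among aldehyde and peroxidase genes. Aldh1a3, a further retinaldehyde dehydrogenase, was at the floor on 2 control vector arrays and at least 32.3-fold higher in Zeb1 vector cells. Its log2 change was 5.02, or 3.31 when the floor was raised to the 50th percentile. Ephx2, soluble epoxide hydrolase, rose by 3.41, or 2.95 with the higher floor, Aldh2, the mitochondrial aldehyde dehydrogenase, by 1.68, and the endoplasmic reticulum peroxidases Gpx8 and Gpx7 by 2.49 and at least 2.55. Gpx7 was at the floor on 2 control vector arrays, and its change was 0.73 when the floor was raised to the 50th percentile. In the list of other aldehyde and drug enzymes 10 of 13 rose and 1 fell, where 26.4% and 24.1% of all tested genes did. The 10 include Aldh1a3, which could pass the filter only by differing. In the list of other NADPH supply genes 6 of 9 rose and 2 fell, beside the same shares. Cth, which releases cysteine from cystathionine, rose by 1.78, whereas Cbs, the enzyme before it in that route, had a change of -2.24. The other large falls were those of Osgin1, an oxidative-stress-induced growth inhibitor and known Nrf2 target (-2.72), of the export pump Abcc3 (-2.45), of Rpia, ribose-5-phosphate isomerase (-2.09), and of the secreted peroxidase Gpx3 (-1.73, or -1.07 with that higher floor).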

How the data were processed

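Total RNA of 6 cultures, 3 per group, was hybridised as biotin-labelled cRNA to Affymetrix arrays, per the labels. The deposited values are log2 signals made with MAS5, per the submitters' processing notes, with no version given in the sources used here. Hybridisation signals carry no read depth, so the 6 arrays limit the precision, and the median standard error of a log2 change was 0.129.

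Signals under the pooled 25th percentile (21.8 on the linear scale) were raised to it. Control probe sets (64) and those naming several genes (932) or none (9160) were left out, and 34741 of 34945 single symbols were found in the RefSeq table. Probe sets reaching the array's median on at least 3 arrays were tested (20594), and the brightest stood for its gene (11893 genes). Zeb1 vector was compared with control vector in limma 3.58.1 (R 4.3.3; lmFit, then eBayes with trend). P-values were adjusted by Benjamini-Hochberg across all tested genes, or across probe sets where so stated, and called at 0.05. The fit was tested on simulated data.

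By the rule for named genes, all 43 are accounted for, with values on every array for Nfe2l2, Keap1 and genes called at 2-fold or more; of the further pathway genes the 6 largest rises and 6 largest falls are named. Array values of the other genes, the partners of Nrf2 and the neighbours on chromosome 3 were added after their values were seen. The genes, roles and lists were chosen with earlier results of these data known. Alternatives varied the floor, filter, normalization, probe-set rule, trend, replicate block and each replicate.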

Additional observations from a re-analysis of the deposited data

How the results depend on the processing

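Over 15 alternative settings, 545 of 561 values of the tested genes kept their direction and their side of the threshold, and 22 of 28 called genes kept their call in every setting run. The number called was 28 and ranged from 21 (stricter filter, which tested 29 of them) to 29, and from 27 to 28 when each replicate was left out. Over all genes, 6004 of 11893 were called in the main setting, 4730 of 7324 with the stricter filter and 6132 of 11893 with quantile normalization. With a replicate left out, 5361 to 5753 of the 11893 were called. Sod1 reversed with the mean of probe sets (log2 change -0.064), on which its probe sets disagree. With no intensity trend, Gsr (adjusted p = 0.0719), Gsto1 (0.0513) and Sod1 (0.0523) lost their calls and Gstt1 gained one (0.0243). With no filter, Gsr lost its call as well (0.118). The cause was not tested. Same-numbered cultures showed no shared deviation over genes (correlations 0.0385, -0.0273 and -0.0692), and only control vector replicate 1 correlated best with its own number. These values cannot show whether same-numbered cultures were handled together. With the replicate block 28 of the genes were called, against 5877 of all 11893, and no call of the described genes changed. Signals near the floor limit Mgst1, Cbr3, Gstt1, Gpx2 and Sod3.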
